A study of Mus musculus with 11 samples.

Results

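The clustered protocadherin genes lie side by side on mouse chromosome 18 in the order Pcdha, Pcdhb and Pcdhg. Their chromatin was examined in muscle satellite cells (SCs), the stem cells of skeletal muscle, in 920 kb of the mm9 genome (chr18:37085000-38005000). The members are all ChIP-seq peaks, that is, stretches of DNA enriched by an antibody against a histone modification, that share at least 1 bp with this region. There were 287 such peaks among the 212879 peaks of the 8 deposited lists. All cells came from hindlimb muscles of male C57BL/6 mice and were sorted as VCAM+/CD31-/CD45-/Sca1- cells. Quiescent SCs (QSCs) were taken from uninjured mice aged 2 to 3 months (young) or 22 to 24 months (old). Activated SCs (ASCs) were, by the sample labels, sorted QSCs of young mice that were then cultured for 3 days on an extracellular matrix coating in medium with horse serum, whereas the paper describes SCs activated in injured muscle. H3K4me3 and H3K27me3 were profiled in all 3 cell states and H3K36me3 in young QSCs and young ASCs, and every cell state and mark is represented by 1 library. Cells were frozen until enough had been collected, so a library can hold cells of several sorts and mice. Without replicates no test between cell states could be made, and the values below stand side by side as values of single libraries.

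Protocadherins are cell adhesion proteins of the cadherin family, best known for the combinations in which neurons express them and by which neurons tell their own processes from those of other cells. In the Pcdha and Pcdhg clusters each variable first exon has its own promoter and is spliced to constant exons shared by the whole cluster. The Pcdhb genes have a single exon each and share no constant exons. The clusters end in the C-type genes Pcdhac1 and Pcdhac2 in Pcdha and Pcdhgc3, Pcdhgc4 and Pcdhgc5 in Pcdhg, which are less restricted in their use than the other members. H3K4me3 is found at promoters, H3K27me3 is deposited by Polycomb complexes and accompanies repression, and H3K36me3 accompanies transcribed gene bodies. The RefSeq gene table of the assembly GRCm38.p6 names 14 Pcdha, 22 Pcdhb and 22 Pcdhg genes, of which 1 is a pseudogene. In that table Slc25a2, a mitochondrial carrier, and Taf7, a subunit of the general transcription factor TFIID, lie between Pcdhb22 and Pcdhga1, and the actin regulator Diaph1 follows the Pcdhg cluster, so peaks of the region need not all belong to protocadherin genes. That assembly is not the one the lists use. Peaks are therefore given by their distance from the start of the region, at the Pcdha end, and were not assigned to single genes.

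Peaks were denser in the region than over the whole list in all 8 lists. The margin was small for H3K27me3 in young QSCs, at 5.43 peaks per Mb against 4.41 over the list. The score is that of the peak caller MACS, which is higher for peaks with a smaller p-value and runs from 50 to a cap near 3100. It depends on the unknown depth of the library and of its input, so scores of different lists are given side by side and carry no comparison of signal. The H3K4me3 lists held 46 peaks in young QSCs, 31 in young ASCs and 52 in old QSCs. The H3K27me3 lists held 5 peaks in young QSCs, 47 in young ASCs and 43 in old QSCs. The H3K36me3 lists held 38 peaks in young QSCs and 25 in young ASCs. In these numbers, young QSCs and young ASCs thus stood in opposite order for H3K27me3 and for the other 2 marks. The last H3K36me3 peak of both lists reached across the end of the region, and the nearest peaks outside lay 121.7 to 197.4 kb before its start. After its end the nearest lay 2.3 kb away for H3K4me3 in young QSCs (score 74.7), 3.0 kb away in young ASCs (score 162) and 89.1 kb away in old QSCs, 110.0 to 153.5 kb away for H3K27me3, and 95.5 and 9.3 kb away for H3K36me3 in young QSCs and young ASCs.

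**Figure D1:**
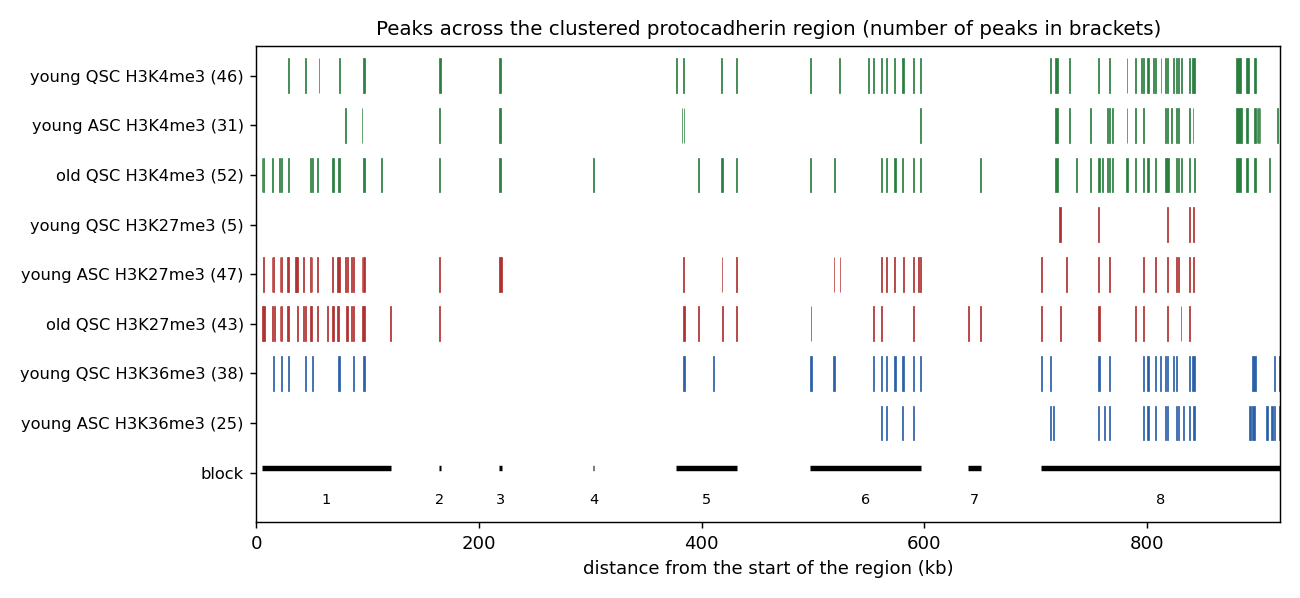
Each bar is a peak, drawn at its distance in kb from the start of the region and grouped by list, with the number of peaks in brackets and the blocks of the region as black lines. In young QSCs the 5 H3K27me3 peaks all lie beyond 721 kb, whereas young ASCs and old QSCs have 22 and 24 such peaks in block 1 at the Pcdha end, where young ASCs have no H3K36me3 peak.

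Against young QSCs, the order in the region was the opposite of that of the whole lists for H3K4me3 and H3K36me3 in young ASCs, and the same for H3K27me3. The whole H3K4me3 lists of old and young QSCs were nearly equal in number. In young ASCs the region held 0.674 times as many H3K4me3 peaks as in young QSCs, while the whole ASC list was 1.33 times as long as that of young QSCs. For H3K36me3 the ratio was 0.658 in the region and 2.10 over the lists. This order of H3K36me3 in the region turned when only peaks with a score of at least 100 were kept, with 16 peaks in young ASCs and 12 in young QSCs, a ratio of 1.33. For H3K27me3 the ratio of ASCs over young QSCs was 9.40 in the region and 3.29 over the lists. That of old over young QSCs was 8.60 in the region and 1.51 over the lists. With the lists of a mark cut to the length of the shortest by score, these H3K27me3 ratios were 2.20 and 5.20 and the H3K4me3 ratio of ASCs 0.370, so the sizes depend on list length while their order against young QSCs held. The order of young ASCs and old QSCs in H3K27me3 turned, from 47 and 43 peaks to 11 and 26. For H3K4me3 of old over young QSCs the ratio was 1.13 in the region and 0.990 over the lists. In covered length these ratios were 1.12 and 1.05, in the same order.

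Per Mb, the young QSC lists had 50.0 H3K4me3 and 41.3 H3K36me3 peaks in the region, against 7.64 and 5.45 in the rest of chromosome 18. Old QSCs had 46.7 H3K27me3 peaks per Mb in the region and 5.34 in the rest of the chromosome. Young QSCs had 5.43 H3K27me3 peaks per Mb there and 2.60 in the rest, and young ASCs 27.2 H3K36me3 peaks and 14.3, the smallest contrasts of the 8 lists. In the 920 kb on either side, old QSCs had 5 and 14 H3K27me3 peaks, young ASCs 27 and 48, and young QSCs 11 and 6. Each flank therefore held more H3K27me3 peaks than the 5 of the region in young QSCs and fewer than the 43 of the region in old QSCs. In young ASCs, with 47 in the region, the flank before it held fewer and the flank after it about as many.

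For scale, the genome was divided into 2860 windows of the same length, counted from the start of each chromosome. The median window held 5, 7 and 6 H3K4me3 peaks in young QSCs, young ASCs and old QSCs, 1, 5 and 5 H3K27me3 peaks, and 3 and 5 H3K36me3 peaks in young QSCs and young ASCs. All 8 lists were thus above their median window in the region. Old QSCs had 38 more H3K27me3 peaks there than young QSCs, where the median window had 3 more and the highest 33 more. Young QSCs had 15 more H3K4me3 peaks than young ASCs, where the median window had 1 fewer and the highest 14 more. A window of this division can overlap the region, so these highest values may come from part of it and are no independent limit. For young ASCs over young QSCs in H3K27me3, the difference of 42 peaks was within the range of the windows, which reached 143. For young QSCs over young ASCs in H3K36me3, the difference of 13 peaks was also within their range, which reached 27. Old QSCs had 6 more H3K4me3 peaks than young QSCs, with a highest window of 9 more.

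In covered length, H3K27me3 took up 5.1 kb of the region in young QSCs, or 0.556%, 40.9 kb (4.45%) in young ASCs and 42.1 kb (4.58%) in old QSCs. Over the whole lists, old QSCs had 0.789 times the H3K27me3 length of young QSCs, so the covered length in the region went the other way from that of the list. H3K4me3 covered 52.2 kb in young QSCs, 29.8 kb in young ASCs and 58.4 kb in old QSCs. H3K36me3 covered 46.3 kb in young QSCs and 32.3 kb in young ASCs.

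The scores of the region were low for H3K4me3 relative to the whole lists, and less so for the other marks. The median H3K4me3 score in the region was 98.9 in young QSCs, 102 in young ASCs and 91.6 in old QSCs, against 587, 342 and 717 over the whole lists. For H3K27me3 the medians were 63.4, 110 and 77.5, against 103, 97.1 and 89.6. For H3K36me3 they were 84.2 in young QSCs and 122 in young ASCs, against 83.8 and 108. The H3K27me3 medians were thus below those of the lists in young and old QSCs and above in young ASCs, and both H3K36me3 medians were at or above theirs. Scores of at least 300 were reached by 5, 7 and 5 H3K4me3 peaks, by 1 H3K27me3 peak and by 4 H3K36me3 peaks, all 5 of the latter marks in young ASCs.

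**Figure D2:**
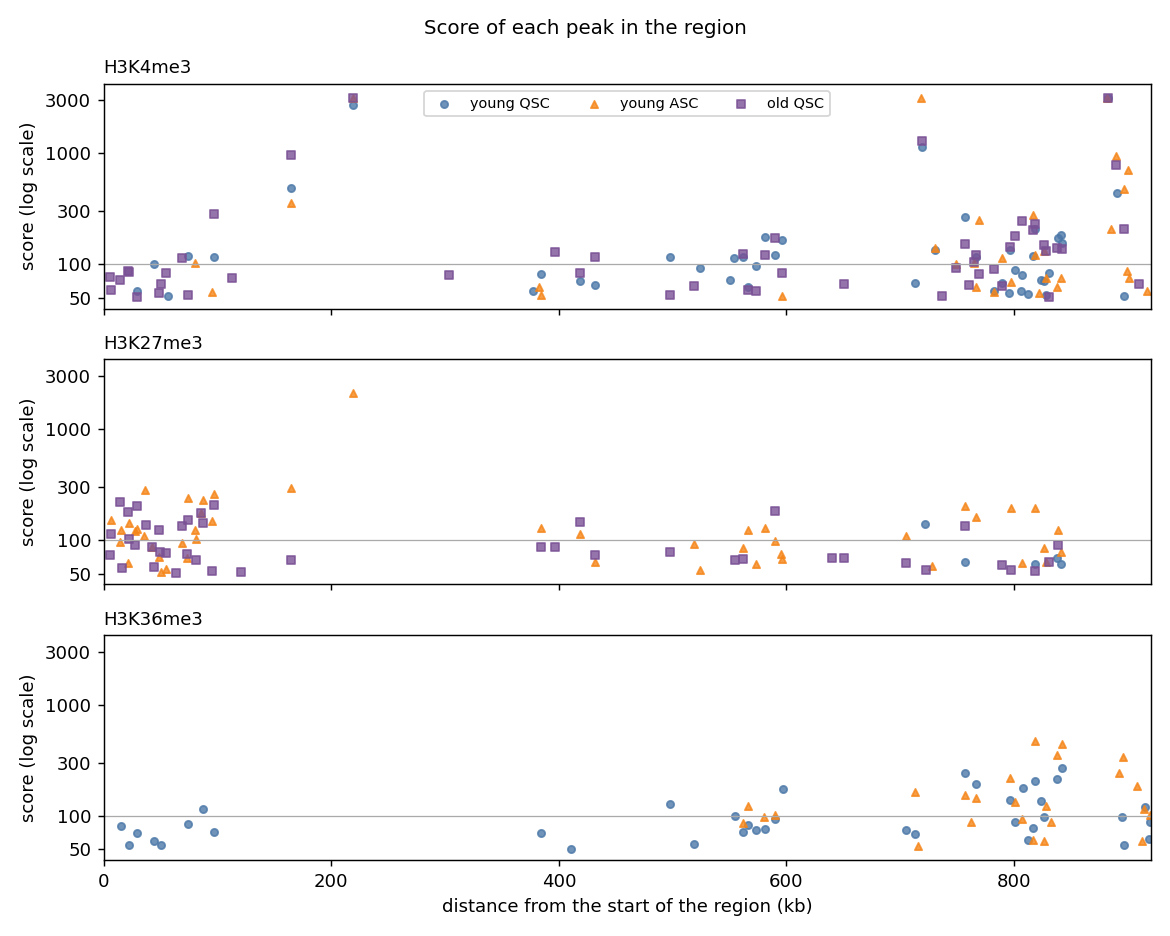
Each point is a peak, with its distance in kb from the start of the region on the x axis and its score on a log scale on the y axis, and the grey line marks a score of 100. H3K4me3 scores above 1000 occur at 3 places only, and the H3K27me3 peak of young ASCs with a score of 2105.5 stands above all other H3K27me3 peaks of the region.

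The H3K4me3 peaks with scores above 1000 lay at the same 3 places in every cell state. At 880 kb (chr18:37965427-37969239 in young QSCs), within the Pcdhg side of the region, the peak was at the cap of 3100 in all 3 lists. It was 3813 bp wide in young QSCs, 4536 bp in young ASCs and 3912 bp in old QSCs, and it was the widest H3K4me3 peak of the region in each. No H3K27me3 or H3K36me3 peak overlapped it in any list. At 718 kb (chr18:37802771-37804763 in young QSCs) the scores were 1140 in young QSCs, 3100 in young ASCs and 1287 in old QSCs, with widths of 1993, 2125 and 1928 bp, again with neither of the other marks. These places thus had H3K4me3 without a peak of any other mark profiled in each cell state.

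The third of these places, at 218 kb, differed between the cell states in H3K27me3. Its H3K4me3 peak (chr18:37302924-37304790 in young QSCs) scored 2696 in young QSCs and 3100 in young ASCs and old QSCs, with widths of 1867, 1645 and 2170 bp. In young ASCs it coincided with an H3K27me3 peak of 2461 bp (chr18:37302766-37305226), the widest and highest-scoring H3K27me3 peak of the region in any list. Neither young nor old QSCs had an H3K27me3 peak there. The next H3K4me3 peak towards the Pcdha end, at 164 kb (chr18:37249233-37250540 in young QSCs), scored 482 in young QSCs, 355 in young ASCs and 953 in old QSCs. It carried H3K27me3 in young ASCs, with a score of 293, and in old QSCs, with a score of 65.6, but not in young QSCs. The H3K4me3 peak at 889 kb, with scores of 434, 934 and 780, had no H3K27me3 in any list.

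Most other H3K4me3 peaks were short. The median width in the region was 1070 bp in young QSCs, 703 bp in young ASCs and 1031.5 bp in old QSCs, against 1362, 1150 and 1453 bp over the whole lists. At the 19 places called once in both young lists, widths had a median of 1085 bp in QSCs and of 767 bp in ASCs, and 5 places were wider in ASCs, a share of 26.3% (exact 95% interval 9.15% to 51.2%, which like all intervals here covers counting error only) against 61.6% over the whole lists. At the 32 places called once in young and old QSCs, the medians were 1097 and 1134 bp, and 20 were wider in old QSCs, a share of 62.5% (43.7% to 78.9%) against 66.1% over the whole lists. The H3K4me3 peaks shared with ASCs were thus mostly narrower there, while those shared with old QSCs were close in width.

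**Figure D3:**
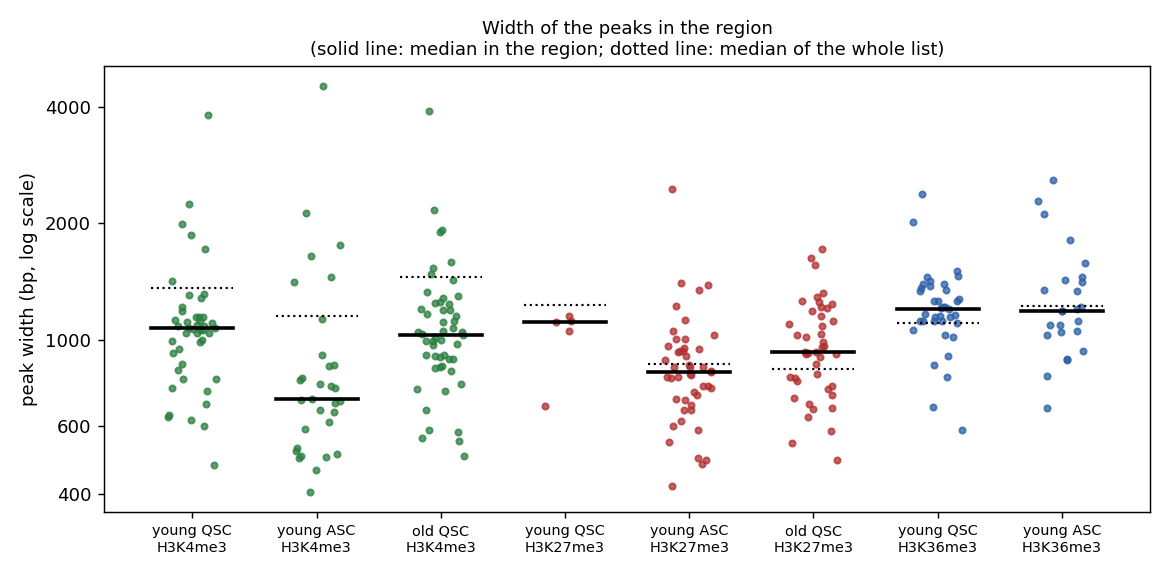
Each point is the width of a peak in bp on a log scale, by list, with the median in the region as a solid line and that of the whole list as a dotted line. H3K4me3 medians in the region lie below those of the whole lists in all 3 cell states, at 1070, 703 and 1031.5 bp, while the H3K36me3 medians of 1203.5 and 1188 bp lie close to theirs.

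H3K27me3 peaks of the region had a median width of 1113 bp in young QSCs, 826 bp in young ASCs and 931 bp in old QSCs, against 1228, 866 and 838 bp over the lists. The highest width in old QSCs was 1721 bp, and no single H3K27me3 peak spanned a cluster in any list. The peak caller sets these widths, and whether close peaks form a broader domain was not tested. H3K36me3 peaks had medians of 1203.5 bp in young QSCs and 1188 bp in young ASCs, close to the 1103 and 1220 bp of the lists, with the widest at 2382 and 2587 bp. Of the 16 H3K36me3 places called once in both lists, 7 were wider in young ASCs, 43.8% (19.8% to 70.1%) against 72.2% over the lists.

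Neighbouring peaks followed each other at similar distances in most lists. The median gap from a peak to the next of its list was 6.26 kb in young QSCs, 6.77 kb in young ASCs and 6.45 kb in old QSCs for H3K4me3, and 6.23 kb for H3K36me3 in young QSCs. It was 6.52 kb for H3K27me3 in old QSCs and 5.45 kb in young ASCs. Over the whole lists these gaps spread widely, at 33.0, 19.1 and 39.6 kb for H3K4me3, 68.9 kb for H3K27me3 in old QSCs, 4.12 kb for H3K27me3 in young ASCs and 12 kb for H3K36me3 in young QSCs. H3K36me3 in young ASCs had gaps of 3.82 kb in the region and 2.04 kb over the list, and the 5 H3K27me3 peaks of young QSCs had a median gap of 26.1 kb. With scores of at least 100, the H3K4me3 gaps were 18.9 kb in young QSCs and 12.6 kb in young ASCs, and the H3K36me3 gap of young QSCs was 13.1 kb, so the spacing in these lists rests on peaks of low score. In old QSCs the gaps were 8.71 kb for H3K4me3 and 7.33 kb for H3K27me3 at these scores, closer to those of all peaks. With peaks less than 1 kb apart merged, the ASC gap for H3K4me3 was 12.1 kb.

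To follow the marks along the clusters, overlapping peaks of all lists were joined into 99 positions, and positions less than 40 kb apart into 8 blocks, a limit chosen after the positions were seen. Block 1 reached from 4.8 to 120.7 kb at the Pcdha end (chr18:37089782-37205653) and held 28 positions. Blocks 2, 3 and 4 were single positions at 164, 218 and 303 kb. Block 5 reached from 376.7 to 432.2 kb with 7 positions, block 6 from 497.3 to 596.9 kb with 12, and block 7 from 639.5 to 651.2 kb with 2. Block 8 reached from 704.9 kb to the end of the region at the Pcdhg end (chr18:37789856-38005437) and held 47 positions.

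Block 1 held the largest differences in number between the cell states of any block for H3K27me3. It held no H3K27me3 peak in young QSCs, 22 in young ASCs and 24 in old QSCs, which are 46.8% and 55.8% of all H3K27me3 peaks of the region in these lists. Their scores ranged from 51.2 to 280.7 in young ASCs and from 50.4 to 221.4 in old QSCs. H3K36me3 had 8 peaks in young QSCs, with scores from 55.4 to 115.4, and none in young ASCs. H3K4me3 had 5 peaks in young QSCs (scores 52.2 to 118.9), 2 in young ASCs (56.6 to 103.7) and 13 in old QSCs (50.9 to 280.5). Called peaks in block 1 were thus of H3K4me3 and H3K36me3 but not H3K27me3 in young QSCs, and nearly all of H3K27me3 in young ASCs. In old QSCs, where H3K36me3 was not profiled here, they were of H3K27me3 and H3K4me3.

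Within block 1 many H3K27me3 peaks came in couples, that is, neighbours less than 1 kb apart, a pattern noticed in the data. Young ASCs had 9 couples in block 1 and old QSCs 8. In young ASCs they began, for example, at 13.7 and 14.9 kb, at 20.8 and 21.9 kb, at 72.5 and 73.6 kb and at 85.3 and 86.5 kb. Old QSCs had couples at 20.8 and 22.0 kb, at 72.3 and 73.5 kb and at 85.2 and 86.5 kb. In all 8 couples of old QSCs and in 9 of the 10 that young ASCs had in the whole region, the member farther from the start of the region was the wider. The median widths of the nearer and the farther members were 792 and 1146 bp in old QSCs and 658 and 1088 bp in young ASCs. Young QSC H3K36me3 overlapped 7 of the 8 farther members and none of the nearer ones in old QSCs, and 7 of 10 farther and 1 of 10 nearer members in young ASCs. The H3K36me3 of young QSCs therefore lay mostly at the farther member of the couples in both lists. Many couples, such as those at 20.8, 72.3 and 85.2 kb in old QSCs, were called in both lists. The same H3K36me3 peaks are then counted in each, so the lists are not independent here. The farther members were also mostly the wider ones, and the part of width in this overlap was not tested. For the width order and the H3K36me3 overlap of couples, no share over the whole lists was taken. In all, 37.2% of the H3K27me3 peaks of old QSCs in the region had a neighbour less than 1 kb away, against 12.8% over that list, and 42.6% in young ASCs against 46.8%.

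Blocks 5 and 6, in the middle of the region, showed a further arrangement. Block 6 held 10 H3K4me3 peaks in young QSCs, 1 in young ASCs and 8 in old QSCs. It held no H3K27me3 peak in young QSCs, 9 in young ASCs and 4 in old QSCs, and 9 H3K36me3 peaks in young QSCs and 4 in young ASCs. Near its end, H3K4me3 and H3K36me3 of young QSCs shared the positions at 560.9, 565.3, 572.9, 580.2, 589.5 and 596.1 kb. All 6 of these positions carried H3K4me3 in old QSCs and H3K27me3 in young ASCs, those at 560.9 and 589.5 kb carried H3K27me3 in old QSCs as well, and that at 596.1 kb alone carried H3K4me3 in young ASCs. Block 5 had 4, 2 and 3 H3K4me3 peaks in young QSCs, young ASCs and old QSCs, 0, 3 and 4 H3K27me3 peaks, and 2 and 0 H3K36me3 peaks in young QSCs and young ASCs. Blocks 4 and 7 held peaks of old QSCs only, with scores from 66.8 to 80.8.

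**Figure D4:**
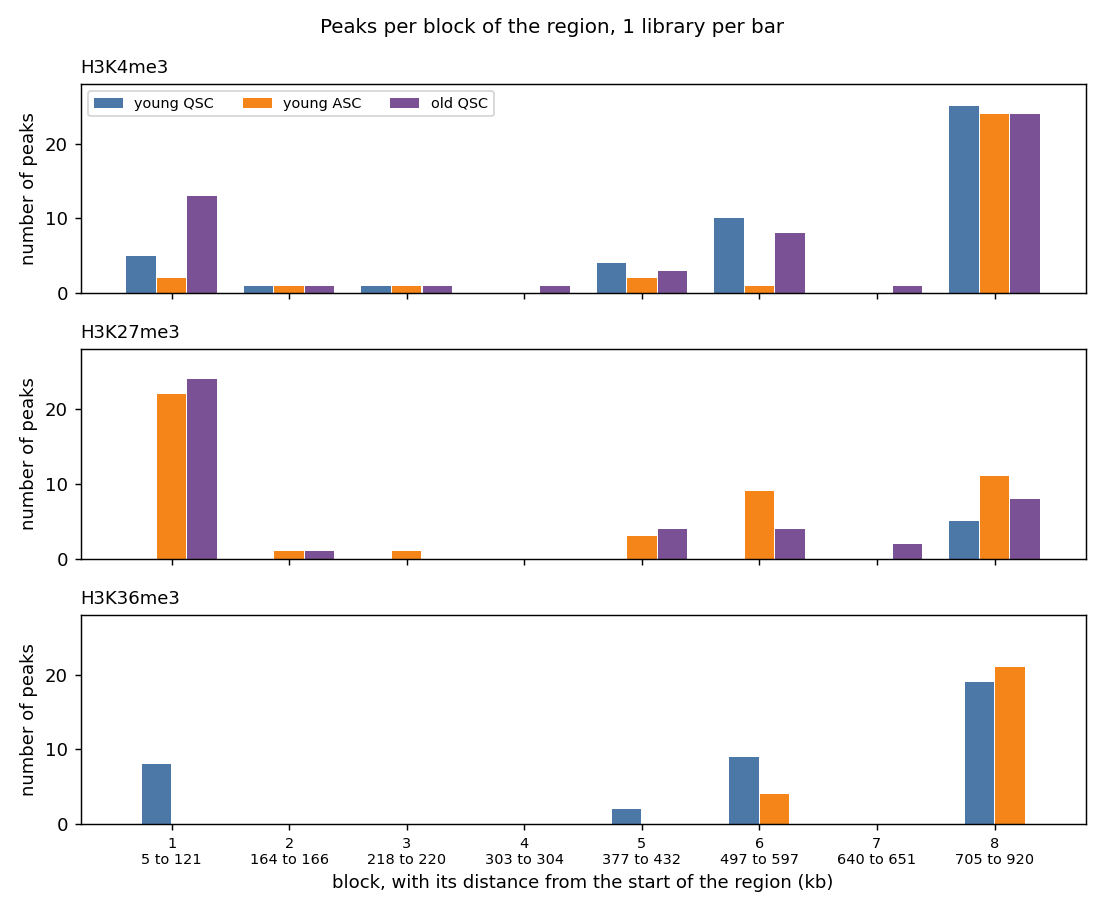
Bars give the number of peaks per block, with a panel for each mark and a colour for each cell state, and each bar is 1 library. H3K4me3 and H3K36me3 are spread over blocks 1, 5, 6 and 8 in young QSCs and are found mainly in block 8 in young ASCs, where 24 of 31 and 21 of 25 peaks lie.

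Block 8, at the Pcdhg end, held similar numbers of H3K4me3 peaks in all cell states and of H3K36me3 peaks in young QSCs and young ASCs. H3K4me3 had 25 peaks in young QSCs, 24 in young ASCs and 24 in old QSCs, and H3K36me3 had 19 in young QSCs and 21 in young ASCs. H3K27me3 had 5, 11 and 8 peaks. All 5 H3K27me3 peaks that young QSCs had in the region were in this block, at 721.4, 756.3, 818.0, 837.7 and 841.3 kb, with scores of 139.5, 63.4, 61.0, 68.9 and 60.7 and widths of 1150, 1113, 1116, 1056 and 676 bp. Of these, 4 recurred in young ASCs and 4 in old QSCs, a share of 80.0% (28.4% to 99.5%) against 74.3% and 31.8% over the young list. The peak missing in young ASCs was that at 721.4 kb, which was also the sole one without H3K4me3, and the peak missing in old QSCs was that at 841.3 kb.

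The H3K36me3 peaks with the highest scores were in block 8 as well. In young ASCs these were at 817.9 kb with a score of 473.2, at 841.0 kb with 440.6 and at 837.4 kb with 356.7. The peaks at the same places in young QSCs scored 206.6, 267.2 and 212.8, and the peak at 841 kb was the widest of the young QSC list in the region. The first and last H3K36me3 peaks lay at 14.8 and 919.1 kb in young QSCs and at 561.1 and 918.9 kb in young ASCs. H3K36me3 thus began in block 1 in young QSCs and in block 6 in young ASCs.

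Beyond the position at 840.9 kb, no H3K27me3 peak was called in any list. There the H3K4me3 peaks at 880 and 889 kb were followed, in young ASCs, by peaks at 896.2, 898.6, 899.5 and 901.3 kb with scores of 470.8, 87.7, 703.5 and 75.4. Young QSCs had 1 peak in that stretch, at 895.9 kb with a score of 51.3, and old QSCs had 1 at 896.2 kb with a score of 209.3. H3K36me3 peaks in young ASCs at 891.4, 894.8 and 906.9 kb were 1815, 2587 and 2120 bp wide, and these are 3 of the 4 widest of that list in the region.

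The share of H3K4me3 peaks that coincided with H3K36me3 was higher in the region than over the lists. Among the 46 H3K4me3 peaks of young QSCs, 28 overlapped H3K36me3 of young QSCs, a share of 60.9% (45.4% to 74.9%), against 12.9% over the whole list. Since the share over the list depends on the score of the H3K4me3 peak, it was also taken among peaks with a score under 300, a limit chosen after the scores were seen. It was 68.3% in the region, or 28 of 41, and 20.1% over the list. In young ASCs 9 of 31 H3K4me3 peaks overlapped H3K36me3, 29.0% (14.2% to 48.0%) against 7.70%, and under a score of 300 the shares were 33.3% and 7.84%. The centres of the overlapping peaks were close, at a median distance of 80.8 bp in young QSCs and 82.0 bp in young ASCs, compared with 154 and 1012 bp over the lists.

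H3K27me3 was found on 4 of the 46 H3K4me3 peaks of young QSCs, a share of 8.70% (2.42% to 20.8%) against 14.0% over the list. It was found on 13 of 31 in young ASCs, 41.9% (24.5% to 60.9%) against 16.9%, and on 25 of 52 in old QSCs, 48.1% (34.0% to 62.4%) against 28.6%. Among peaks with a score under 300, the shares in the region were 9.76%, 45.8% and 51.1%, and those over the lists 12.4%, 10.1% and 41.3%. For old QSCs the share in the region was therefore close to that of other H3K4me3 peaks of low score. With scores of at least 100 in both lists the 3 shares were 0%, 23.5% and 16%, so at most double-marked positions at least 1 of the marks had a score under 100. The overlap is one of positions in separate libraries and leaves unknown whether a single nucleosome carried both marks. H3K4me3 peaks of young QSCs also lay where the other cell states had H3K27me3. Of the 46, 24 overlapped H3K27me3 of young ASCs, 52.2% (36.9% to 67.1%) against 26.0% over the list, and 18 overlapped that of old QSCs, 39.1% (25.1% to 54.6%) against 21.1%.

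**Figure D5:**
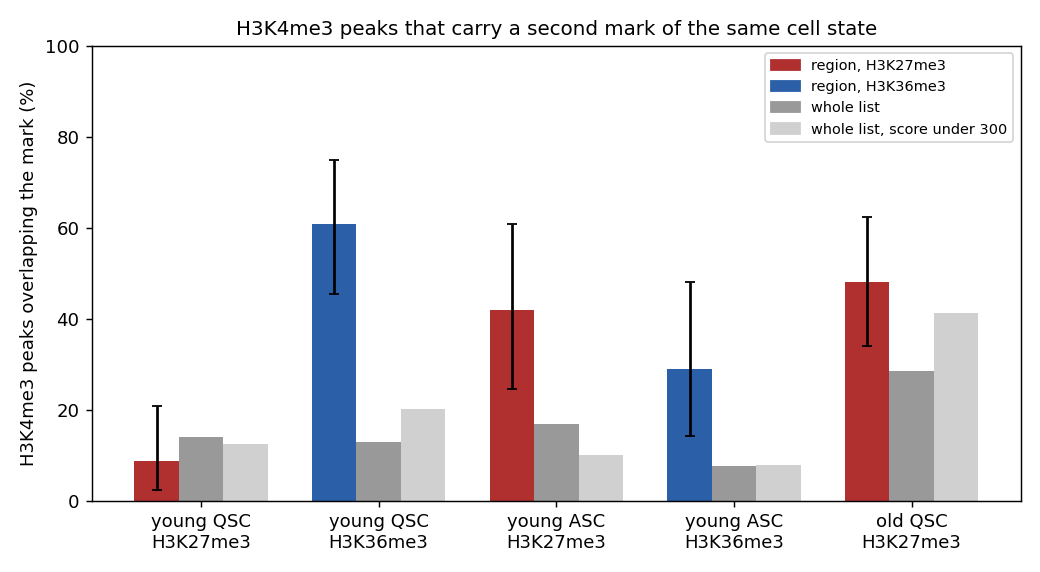
Coloured bars give the percentage of H3K4me3 peaks in the region that overlap H3K27me3 (red) or H3K36me3 (blue) of the same cell state, with exact 95% intervals, beside all peaks of the whole list (dark grey) and those with a score under 300 (light grey). The share with H3K36me3 in young QSCs is 60.9% against 12.9% and 20.1%, and the share with H3K27me3 in old QSCs, 48.1%, lies close to the 41.3% of peaks of low score.

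All 4 H3K4me3 peaks of young QSCs that carried H3K27me3 carried H3K36me3 too, 8.70% of the 46 peaks against 1.98% over the list. In young ASCs 7 of 31 carried both, 22.6% (9.59% to 41.1%) against 0.691%. Joined over all lists, 25 of the 99 positions had at least 1 list of each mark, a share of 25.3% against 1.94% of the 118948 positions of the genome. Of the positions of the region, 2 were called in all 8 lists, at 817.9 and 837.4 kb (chr18:37902920-37904383 and chr18:37922438-37923910), a share of 2.02% against 0.0362% in the genome. A further 3, at 756.2, 796.3 and 840.9 kb, were called in 7. The protocadherin genes are close copies of each other, and how reads that match several places were treated is not given in the sources used here. The labels list 1 input library for each cell state, so lists can share an input. The part of either in these coinciding peaks was not tested.

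The share of young QSC H3K4me3 peaks that recurred in other cell states was lower in the region than over the list. Of the 46 in young QSCs, 19 overlapped an H3K4me3 peak of young ASCs, a share of 41.3% (27% to 56.8%) against 78.6%, and 32 overlapped one of old QSCs, 69.6% (54.2% to 82.3%) against 80.5%. Among peaks with a score under 300 the share recurring in young ASCs was 34.1%, against 50.5% over the list, and that recurring in old QSCs was 65.9%, against 54.6%. At low scores the share was thus below that of the list towards young ASCs and above it towards old QSCs. These shares rest on 14 and 27 of 41 peaks and no interval was taken for them. Whether either differs from the list by more than counting error was therefore not tested. Of the 31 peaks of young ASCs, 19 recurred in young QSCs, 61.3% (42.2% to 78.2%) against 58.7%.

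Joined over the 3 cell states, the H3K4me3 peaks formed 75 sites. All 3 states had H3K4me3 at 16 of these, a share of 21.3% (12.7% to 32.3%) against 42.4% of the 40896 sites of the genome. Young and old QSCs without ASCs accounted for 16 sites, 21.3% against 4.43%. Only old QSCs had 17 sites, 22.7% against 9.06%, only young QSCs 11, 14.7% against 8.31%, and only young ASCs 9, 12% against 30.6%. Sites of both QSC lists without ASCs thus took a larger share in the region than in the genome, and sites of ASCs alone a smaller one. No share was taken among sites of low score, and over the young QSC list H3K4me3 peaks of low score recurred less often.

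By H3K27me3, 32 of the 75 sites had no peak in any state, 42.7% (31.3% to 54.6%) against 73.7% over the genome. There were 3 sites with H3K27me3 in all 3 states, 4% against 7.58%, and 18 with it in young ASCs and old QSCs but not in young QSCs, 24.0% (14.9% to 35.3%) against 6.53%. No site had H3K27me3 in young QSCs alone, where the share over the genome was 0.628% and the exact interval reaches 4.80%. By H3K36me3, 17 sites had it in both states in which it was profiled, 22.7% against 4.89%, 14 in young QSCs alone, 18.7% against 6.82%, and 1 in young ASCs alone, 1.33% against 3.84%.

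The H3K27me3 peaks of young ASCs and old QSCs occupied largely the same places in the region. Of the 43 peaks of old QSCs, 31 overlapped one of young ASCs, a share of 72.1% (56.3% to 84.7%) against 56.4% over the old list. From the other side these were 31 of 47, 66.0% (50.7% to 79.1%) against 23.2% of the ASC list, which is the longer. The centres of the overlapping peaks were a median of 42.0 bp apart, against 154 bp over the lists, and 8 of the 31 were wider in young ASCs, 25.8% (11.9% to 44.6%) against 58.3%. The peaks differed in their overlap with H3K4me3, in the same order as those of the whole lists. In old QSCs 25 of 43 H3K27me3 peaks, 58.1% (42.1% to 73.0%), overlapped H3K4me3 of old QSCs, against 41.3% over the list, and in young ASCs 13 of 47, 27.7% (15.6% to 42.6%), overlapped H3K4me3 of young ASCs, against 13.9%. In block 1 these were 11 of 24 peaks in old QSCs and 2 of 22 in young ASCs.

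Young QSC H3K36me3 lay at many of the places with H3K27me3 in the other cell states. Of the 38 H3K36me3 peaks of young QSCs, 24 overlapped an H3K27me3 peak of young ASCs, 63.2% (46.0% to 78.2%) against 11% over the list, and 18 overlapped one of old QSCs, 47.4% (31.0% to 64.2%) against 11.7%. Within young QSCs, 4 of the 38 overlapped H3K27me3, 10.5% (2.94% to 24.8%) against 2.90%, and 27 overlapped H3K4me3, 71.1% (54.1% to 84.6%) against 15.4%. The 2 marks also coincided within young ASCs, where 13 of the 25 H3K36me3 peaks overlapped H3K27me3, 52% (31.3% to 72.2%) against 1.81%. H3K36me3 recurred in young ASCs at 20 of the 38 peaks, 52.6% (35.8% to 69.0%) against 59.2%, and at 18 of the 25 ASC peaks it recurred in young QSCs, 72.0% (50.6% to 87.9%) against 26.3%.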

How the data were processed

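For each of the 8 ChIP libraries the authors deposited a peak list with start, end and a score per peak; by the peak names the lists come from MACS, each called against an input library. The deposited score was read, from its lowest value of 50 and its cap near 3100, as the p-value transformed as MACS does, on which 50 stands for 1e-05. The submitters' processing notes name Bowtie and mm9; versions, read numbers and the treatment of duplicate reads are not given in the sources used here, so depth is unknown. The 3 input libraries were not analysed here. Peaks in the region, their width, gaps and overlaps (at least 1 bp) were computed in pandas 2.3.3 and numpy 2.4.6 under Python 3.11.15, exact (Clopper-Pearson) 95% intervals with scipy 1.17.1 and figures with matplotlib 3.10.9. Counting of overlaps was tested on simulated data and checked against bedtools 2.31.1. Density over the whole genome uses the largest peak position on each chromosome as its length. Peaks described singly were all peaks of lists with up to 10, otherwise the widest, the highest scoring, the outermost and those of sites that differ between cell states. The gap between blocks, the score limit of 300 and the couples were chosen after the values were seen. Gene names come from RefSeq (GRCm38.p6), by order only. The region and the comparisons were chosen with earlier results of these data known. Alternatives were a score of at least 100, lists of a mark trimmed to equal length by score, merging of peaks less than 1 kb apart, peak centres within the region, and an overlap covering 50% or more of the shorter peak.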

Additional observations from a re-analysis of the deposited data

How the results depend on the processing

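Of 139 recomputed values of 45 results, 97 stayed within 1.5 times the reported number, length or ratio or within the interval of the share. Peak centres within the region, an overlap of 50% of the shorter peak and, except for the H3K4me3 gap in young ASCs of 12.1 kb, merging moved none beyond that. With scores of at least 100, the numbers of peaks were 23, 17 and 25 for H3K4me3 in young QSCs, young ASCs and old QSCs, 1, 26 and 15 for H3K27me3, and 12 and 16 for H3K36me3. The covered lengths were 30498 bp in young QSCs and 33804 bp in old QSCs for H3K4me3, 1150, 26091 and 16724 bp for H3K27me3, and 15719 bp in young QSCs for H3K36me3. The median gaps were 18.9 and 12.6 kb for H3K4me3 in young QSCs and young ASCs, 8.55 kb for H3K27me3 in young ASCs, and 13.1 and 8.63 kb for H3K36me3. The H3K27me3 ratios over young QSCs were 26.0 for young ASCs and 15.0 for old QSCs, against a single young peak, and the H3K36me3 ratio reversed to 1.33. The shares of H3K4me3 peaks with H3K27me3 were 0%, 23.5% and 16%, and the single H3K27me3 peak left in young QSCs recurred in 0% of young ASCs and old QSCs. With the lists of a mark trimmed to equal length by score, there were 17 H3K4me3, 11 H3K27me3 and 14 H3K36me3 peaks in young ASCs and 26 H3K27me3 peaks in old QSCs, covering 13232 bp (H3K27me3) and 21230 bp (H3K36me3) in young ASCs and 26941 bp in old QSCs. The ratios over young QSCs were then 0.370, 2.20 and 0.368 for the marks in young ASCs and 5.20 for H3K27me3 in old QSCs, the share with H3K27me3 in young ASCs was 17.6%, and 23.9% of H3K4me3 and 31.6% of H3K36me3 peaks of young QSCs recurred in young ASCs. The direction of every other ratio over young QSCs held under all alternatives run, while in H3K27me3 old QSCs had more peaks than young ASCs with the trimmed lists and fewer otherwise; the cause of these shifts was not tested. No paired analysis was possible because each cell state and mark had 1 library. Depth is unknown, and a place without a peak may have had too few reads to be called.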
